A study of Mus musculus with 12 samples.

Results

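Transcript levels of 10 genes of colonic mucus and of its main producer, the goblet cell, were read across all 12 arrays of a mouse colitis series. The genes were chosen by name: Muc1, Muc2, Muc4 and Muc13, which encode mucins, and Tff3, Fcgbp, Agr2, Spdef, Bcas1 and B3gnt6, which are known from goblet cells or from mucin sugar chains. They are 10 of the 11933 genes measured and are read by 18 of the 45281 probes on the array, and all 18 passed the filter on detection. Colon RNA came from male mice of 7 to 8 weeks in 4 groups of 3 arrays each. One group was left as control and the remaining ones received dextran sulfate sodium (DSS), which injures the colon lining of mice and causes colitis. DSS was given alone (called DSS here), after DAPP (DAPP before DSS) or together with DAPP (DAPP during DSS). The labels do not spell out DAPP, and the title of the series speaks of polyphenols from apple peel. In the column headers a number without a unit, 200 when DAPP came before DSS and 400 when it came during DSS, goes with DAPP, so timing and this number cannot be told apart. The labels used here name no strain, route, vehicle or duration of DSS. The design asks what DSS does to these transcripts, and whether DAPP before or during DSS moves them.

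The colon surface is covered by a mucus gel whose framework is the polymer of the secreted mucin Muc2, made by goblet cells. Within these cells Agr2 and other enzymes of the endoplasmic reticulum help Muc2 to fold, glycosyltransferases attach its O-linked sugar chains, and the transcription factors Atoh1, Spdef and Klf4 guide the cell to its secretory form. Fcgbp, Tff3, Clca1 and Zg16 are secreted with Muc2 into the gel. Muc1, Muc4 and Muc13 instead span the cell membrane and carry their sugar chains on the cell surface.

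RefSeq promoter windows were found for 7 of the 10 genes, as 8 windows because Muc13 has a pair of starts. Each window runs from 250 bases before to 50 bases after the start of a transcript in the mouse build GRCm38.p6. The windows are printed for the gel mucin, for the gel protein that, among the 10 genes, lay farthest from control in DSS, and for the membrane mucin whose control arrays lay below all DSS arrays. All are read 5′ to 3′ on the plus strand. The Muc2 window is chr7:141690090-141690389, the Fcgbp window is chr7:28070986-28071285 and the Muc1 window is chr3:89228806-89229105. Capitals mark CACCC, a core that Klf4 binds, on either strand (GGGTG when it lies on the other one), and TATAAA, the core of a TATA box.
Muc2: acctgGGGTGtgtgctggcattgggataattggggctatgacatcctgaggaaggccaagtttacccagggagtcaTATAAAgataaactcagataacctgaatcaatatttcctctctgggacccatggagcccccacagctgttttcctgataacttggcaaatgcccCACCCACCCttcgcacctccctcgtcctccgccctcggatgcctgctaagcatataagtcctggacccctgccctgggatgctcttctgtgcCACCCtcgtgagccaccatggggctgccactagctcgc
Fcgbp: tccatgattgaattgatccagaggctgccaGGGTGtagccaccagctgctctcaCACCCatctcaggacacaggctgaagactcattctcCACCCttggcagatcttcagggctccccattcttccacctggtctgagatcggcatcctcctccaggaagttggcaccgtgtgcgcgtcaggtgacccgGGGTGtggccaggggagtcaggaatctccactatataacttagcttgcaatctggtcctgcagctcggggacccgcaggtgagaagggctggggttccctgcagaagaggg
Muc1: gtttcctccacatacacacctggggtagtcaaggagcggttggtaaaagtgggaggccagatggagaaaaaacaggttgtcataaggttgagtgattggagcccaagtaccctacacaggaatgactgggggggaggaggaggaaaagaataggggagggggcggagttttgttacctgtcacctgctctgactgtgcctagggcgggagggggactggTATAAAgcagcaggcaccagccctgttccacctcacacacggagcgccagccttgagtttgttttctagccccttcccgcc
CACCC occurred 4 times in the Muc2 window, where the copies that start at -80 and -76 share a base, and 4 times in the Fcgbp window. It did not occur in the Muc1 window, whose TATAAA starts at -31. Over both strands, CACCC was present in 4 of the 8 windows and in 57.5% of 32851 mouse promoters of the same length. TATAAA was present in 3 of 8 windows and 13.6% of promoters, and TTTATG, a core for Cdx2, in 3 of 8 and 11.9%. CCGGAT, a core for Spdef, was in 0 of 8 windows and 6.04% of promoters, and TGTTTAC, a core for Foxa factors, in 0 of 8 and 3.65%. These matches describe letters in the windows only. Muc2, Fcgbp and B3gnt6 lie on chromosome 7, Muc4 and Muc13 on chromosome 16, Tff3 and Spdef on chromosome 17, and Bcas1, Muc1 and Agr2 on chromosomes 2, 3 and 12.

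Replicate 1 of DSS and replicate 1 of DAPP before DSS stood apart for several of the 10 genes, so results that rest on them are given with and without both. Because these values singled the arrays out, the fits without them describe how results depend on them and support no call. Over all genes, correlations with the remaining arrays were 0.828 to 0.914 for DAPP before DSS 1, and all other pairs had 0.916 to 0.984. The mean level of 14 epithelial genes was 10.86 on DAPP before DSS 1, 11.54 on DSS 1 and 11.68 to 11.98 on the other 10 arrays. For 11 markers of absorptive colonocytes it was 9.88 and 9.87 on these arrays and 10.28 to 11.51 on the other 10. The mean of 12 transcripts of the exocrine pancreas ranged from 6.35 to 14.39 and was high on some arrays of each DSS-treated group. Its part in the results was not tested beyond a fit that held it as a covariate, in which 0 of the 10 genes passed in any comparison. Against control that fit called 630 of 11933 genes in DSS, 713 in DAPP before DSS and 829 in DAPP during DSS. Of 13 markers of stomach and small intestine, 4 passed the detection filter. The mean raw signal was 433 to 507 on control and DSS arrays and 601 to 728 on DAPP arrays. Raw signal and DAPP thus cannot be told apart when DAPP groups are compared with DSS or control. Levels below are normalised log2 intensities, in the order of replicates 1, 2 and 3. In RNA from whole tissue, fewer cells of a type and less RNA per cell cannot be told apart.

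Muc2 was high on 10 arrays and low on DSS 1 and DAPP before DSS 1. Its bright probe (ILMN_2675214) read 14.78, 14.80 and 14.77 in control and 13.51, 14.82 and 14.75 in DSS. It read 12.87, 14.89 and 14.85 in DAPP before DSS, while DAPP during DSS had 14.98, 15.00 and 14.92. The 10 high arrays spanned 14.75 to 15.00, and the low arrays lay more than 1 log2 unit under all of them. The bright Muc2 probe was within 0.5 of the highest level of any probe on those 10 arrays. That level, 15.09, and the 72 probes within 0.5 of it are the same on each array because of quantile normalisation. They are thus not a measured ceiling. The highest raw intensity was 21767.9 to 30597.8 on control and DSS arrays and 39395.7 to 47717.1 on DAPP arrays. A difference between arrays this near the top of the scale can be understated. In the unnormalised data the same probe had intensities of 8355.7 to 43678.1, with 9619.8 on DSS 1 and 8355.7 on DAPP before DSS 1. Only 1 probe had the highest raw intensity on each array. Intensities are given with decimals, so exact ties would be rare, and this count cannot show whether there was a ceiling.

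The DSS mean of Muc2 was 14.36 ± 0.74 (SD, n = 3) against 14.78 ± 0.01 in control, a difference of -0.42 ± 0.48 (SE, limma, adjusted p = 0.72). Its 95% interval of -1.47 to 0.64 spans 0. Without DSS 1 and DAPP before DSS 1 the difference was 0.01 ± 0.15 (limma, adjusted p = 0.981). The DAPP during DSS arrays all lay above the DSS arrays, by 0.61 ± 0.48 in the means (limma, adjusted p = 1), and the difference was 0.18 ± 0.15 without both arrays. DAPP during DSS lay 0.19 ± 0.48 above control, again with no overlap (limma, adjusted p = 0.881), and all 6 of those arrays were near the top of the scale. The remaining Muc2 probes were dim: ILMN_1215436 was detected on 5 of 12 arrays at levels of 4.50 to 6.40, and ILMN_1221082 on 7 of 12 at 4.87 to 6.93. Across the 12 arrays their levels correlated with the bright probe at 0.55 and 0.49 and with each other at 0.80. What the dim probes read was not tested.

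**Figure D1:**
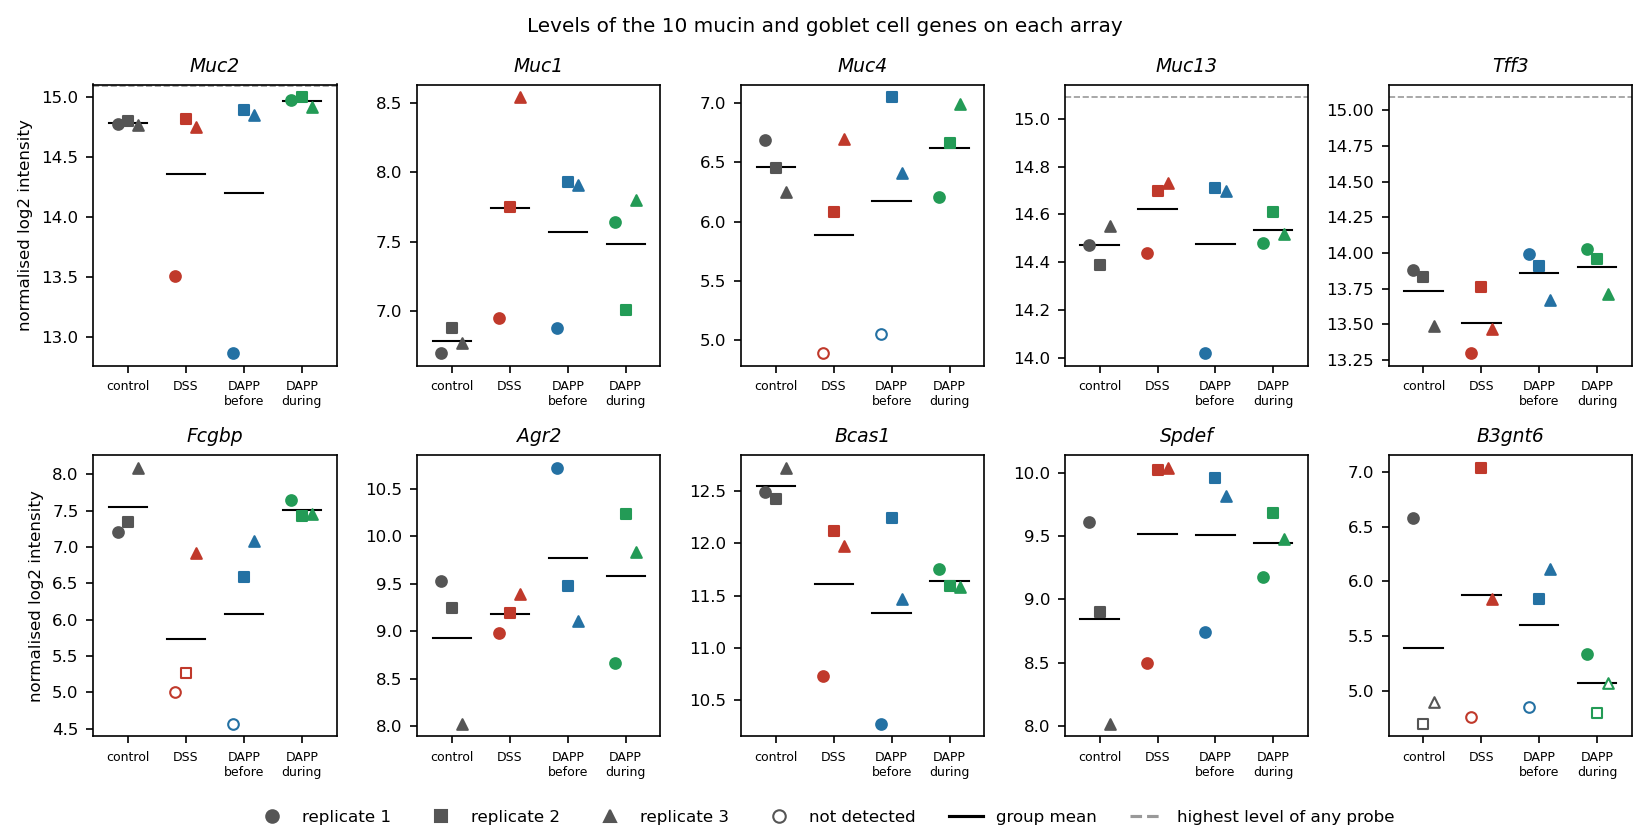
Normalised log2 intensity (y axis) of the 10 genes on each array, by group (x axis). Symbols give the replicate, open symbols are arrays on which the probe was not detected, black bars are group means of 3 arrays and the dashed line is the highest level of any probe. Muc2 lies at 14.75 to 15.00 on 10 arrays and at 13.51 and 12.87 on DSS 1 and DAPP before DSS 1. Bcas1 lies at 12.42 to 12.72 in control and at 12.24 or below elsewhere.

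Among the 10 genes, Fcgbp differed most between DSS and control, without passing the test. Fcgbp binds the Fc part of IgG and is cross-linked into the mucus. Its levels were 7.21, 7.35 and 8.09 in control and 5.0, 5.27 and 6.92 in DSS. In DAPP before DSS they were 4.57, 6.58 and 7.08, and in DAPP during DSS 7.64, 7.43 and 7.45. All control arrays and all DAPP during DSS arrays lay above all DSS arrays. The probe was not detected on DSS 1, DSS 2 and DAPP before DSS 1, so those levels are background readings.

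The DSS mean of Fcgbp differed from control by -1.82 ± 0.61, with a 95% interval of -3.14 to -0.50, and only 1 of 3 DSS arrays was above background. It did not pass (limma, adjusted p = 0.105). Under 23 alternative settings it ranged from -2.42 to -0.81, with adjusted p from 0.0175 to 0.339, and passed in 4. Without DSS 3 it was -2.42 (limma, adjusted p = 0.0319), and without DAPP before DSS 1 it was -1.82 (limma, adjusted p = 0.0175). DAPP before DSS 1 is in neither group of that comparison, so the difference stayed the same and only its error and p changed. Against the same DSS arrays, DAPP during DSS differed by 1.78 ± 0.61, with an interval of 0.46 to 3.10 (limma, adjusted p = 1). DAPP before DSS differed from DSS by 0.34 ± 0.61, with an interval of -0.98 to 1.66. DAPP during DSS lay 1.44 ± 0.61 above DAPP before DSS (limma, adjusted p = 0.842), and 0.68 above it without DSS 1 and DAPP before DSS 1. Against control the DAPP during DSS difference was -0.04 ± 0.61, with an interval of -1.36 to 1.28.

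Tff3, a trefoil peptide of goblet cells that aids repair of the epithelium, varied little. It read 13.88, 13.83 and 13.49 in control, 13.30, 13.76 and 13.47 in DSS, 13.99, 13.91 and 13.67 in DAPP before DSS, while DAPP during DSS had 14.03, 13.96 and 13.71. All 4 groups overlapped, and DSS differed from control by -0.22 ± 0.20, with an interval of -0.67 to 0.22 (limma, adjusted p = 0.629). Tff3 was 0.35 ± 0.20 above DSS in DAPP before DSS and 0.39 ± 0.20 above it in DAPP during DSS. Neither passed, at adjusted p of 0.851 and 1 in limma.

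The membrane mucins did not share a pattern. Muc1, which is also made by many epithelia outside the gut, read 6.70, 6.88 and 6.77 in control and 6.95, 7.75 and 8.54 in DSS. It read 6.88, 7.93 and 7.91 in DAPP before DSS, while DAPP during DSS had 7.64, 7.01 and 7.80. All control arrays lay below all DSS and all DAPP during DSS arrays, and no array of DAPP before DSS lay below the highest control array. The DSS mean was 1.95-fold above control, by 0.96 ± 0.40 with an interval of 0.10 to 1.82 (limma, adjusted p = 0.196). All 4 Muc1 probes lay higher in DSS, by 0.79 to 0.98, and correlated with each other at 0.84 to 0.95 over the arrays. Without DSS 1 and DAPP before DSS 1, the Muc1 difference from control was 1.36 ± 0.28 in DSS (limma, adjusted p = 0.0167). In DAPP before DSS it was 1.14 ± 0.28 (limma, adjusted p = 0.0244). Each array left out was the lowest of its group for Muc1, so leaving it out had to enlarge the difference, and no rise is called from these fits.

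Muc4 read 6.69, 6.45 and 6.25 in control and 4.89, 6.08 and 6.70 in DSS. It read 5.05, 7.05 and 6.41 in DAPP before DSS, while DAPP during DSS had 6.21, 6.66 and 6.99. It was not detected on DSS 1 and DAPP before DSS 1 and was detected on the other 10 arrays. The DSS difference of -0.57 ± 0.51 (limma, adjusted p = 0.618) was -0.07 ± 0.30 without both arrays. Muc13, which lies on the apical surface of enterocytes and goblet cells, read 14.47, 14.39 and 14.55 in control and 14.44, 14.70 and 14.73 in DSS. It read 14.02, 14.71 and 14.70 in DAPP before DSS, while DAPP during DSS had 14.48, 14.61 and 14.52. Only DAPP before DSS 1 stood apart, and the probe was near the top of the scale on 5 arrays. The difference between DSS and control was 0.15 ± 0.21 (limma, adjusted p = 0.781). The second Muc13 probe, which was not near the top on any array, was also lowest on DAPP before DSS 1, at 10.80 against 12.72 to 13.69 on the other arrays.

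Among the genes that act inside the cell, Bcas1 was the only one of the 10 whose control arrays lay above all arrays of each other group. Bcas1 is best known from oligodendrocytes and is also made in goblet cells. It read 12.49, 12.42 and 12.72 in control, 10.73, 12.12 and 11.97 in DSS, 10.28, 12.24 and 11.47 in DAPP before DSS, while DAPP during DSS had 11.75, 11.59 and 11.58. Against control it differed by -0.94 ± 0.45 in DSS and by -1.21 ± 0.45 in DAPP before DSS, and the DAPP during DSS difference was -0.90 ± 0.45. None passed, at adjusted p of 0.277, 0.108 and 0.288 in limma. These differences share the control arrays. Without DSS 1 and DAPP before DSS 1, the Bcas1 difference in DAPP during DSS was -0.90 ± 0.21 (limma, adjusted p = 0.0155). Neither array is in that comparison, so the difference stayed the same, and the smaller error came from the spread that all groups share. Without both arrays the DSS difference was -0.50 ± 0.23 (limma, adjusted p = 0.236), and the DAPP before DSS difference was -0.68 ± 0.23 (limma, adjusted p = 0.0784).

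Agr2, a disulfide isomerase needed for Muc2 in mice, read 9.53, 9.24 and 8.03 in control and 8.98, 9.19 and 9.39 in DSS. It read 10.72, 9.48 and 9.11 in DAPP before DSS, while DAPP during DSS had 8.67, 10.23 and 9.83. DAPP before DSS 1, the array with the lowest Muc2, had the highest Agr2. Spdef, an Ets factor of goblet cell maturation, read 9.61, 8.90 and 8.02 in control, 8.50, 10.02 and 10.04 in DSS, 8.74, 9.96 and 9.82 in DAPP before DSS, while DAPP during DSS had 9.18, 9.68 and 9.48. Control 3 was the lowest array of all 12 for both genes. Their differences between DSS and control were 0.25 ± 0.50 for Agr2 and 0.68 ± 0.49 for Spdef, at adjusted p of 0.853 and 0.513 in limma. Without DSS 1 and DAPP before DSS 1 the Spdef difference was 1.19 ± 0.37 (limma, adjusted p = 0.0796).

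B3gnt6, which starts the core 3 branch of mucin O-glycans, was detected on 6 of 12 arrays. It read 6.58, 4.70 and 4.90 in control, 4.76, 7.04 and 5.84 in DSS, 4.85, 5.84 and 6.11 in DAPP before DSS, while DAPP during DSS had 5.34, 4.80 and 5.07. Detected and undetected arrays occurred in every group, and its DSS difference of 0.49 ± 0.59 did not pass (limma, adjusted p = 0.733). Its pair of probes correlated at 0.83.

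In the comparison of DSS with control, 0 of the 10 genes passed an adjusted p under 0.05 in limma, where 6.71% of all genes passed. At an unadjusted p under 0.05 the count was 2 of 10, Muc1 and Fcgbp, against 19.7% of all genes. The groups did not overlap for 3 of 10, Muc1, Fcgbp and Bcas1, against 30.5% of all genes. The median difference was -0.04 over the 10 genes and -0.04 over all genes. The 10 genes thus split 5 to 5 in sign and were near the background in each count. The fit to single probes called 0 of the 18 probes in any of the 6 comparisons, where 4.70% of all probes were called between DSS and control. At an unadjusted p under 0.05 the count between DSS and control was 3 of 18, against 16.6% of all probes.

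Neither DAPP group could be separated from DSS for these genes. Against DSS, 0 of 10 passed in DAPP before DSS and 0 of 10 in DAPP during DSS, where limma called 0% of all genes in either comparison. At an unadjusted p under 0.05 the counts were 0 and 1 of 10, the latter Fcgbp, against 4.48% and 2.66% of all genes. DAPP before DSS overlapped DSS for all 10 genes, where 6.48% of all genes did not overlap. DAPP during DSS did not overlap DSS for Muc2 and Fcgbp, 2 of 10, against 11.3%. The same 2 genes did not overlap between the DAPP groups, against 7.90%, where 0 of 10 passed against 0% of all genes and 1 of 10, Fcgbp, had an unadjusted p under 0.05 against 4.06%. Comparisons with DSS share the DSS arrays, DSS 1 among them.

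Against control, 0 of 10 passed in DAPP before DSS, where 11.2% of all genes passed, and 0 of 10 in DAPP during DSS, where 7.68% passed. Of the 18 probes 0 passed in either comparison, where 8.12% and 5.59% of all probes did. Muc1, Fcgbp and Bcas1 did not overlap control in DAPP before DSS, against 29.2% of genes, and Muc2, Muc1 and Bcas1 in DAPP during DSS, against 40.8%. In DAPP before DSS, Fcgbp differed from control by -1.48 ± 0.61 (limma, adjusted p = 0.143) and by -0.73 without both arrays.

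**Figure D2:**
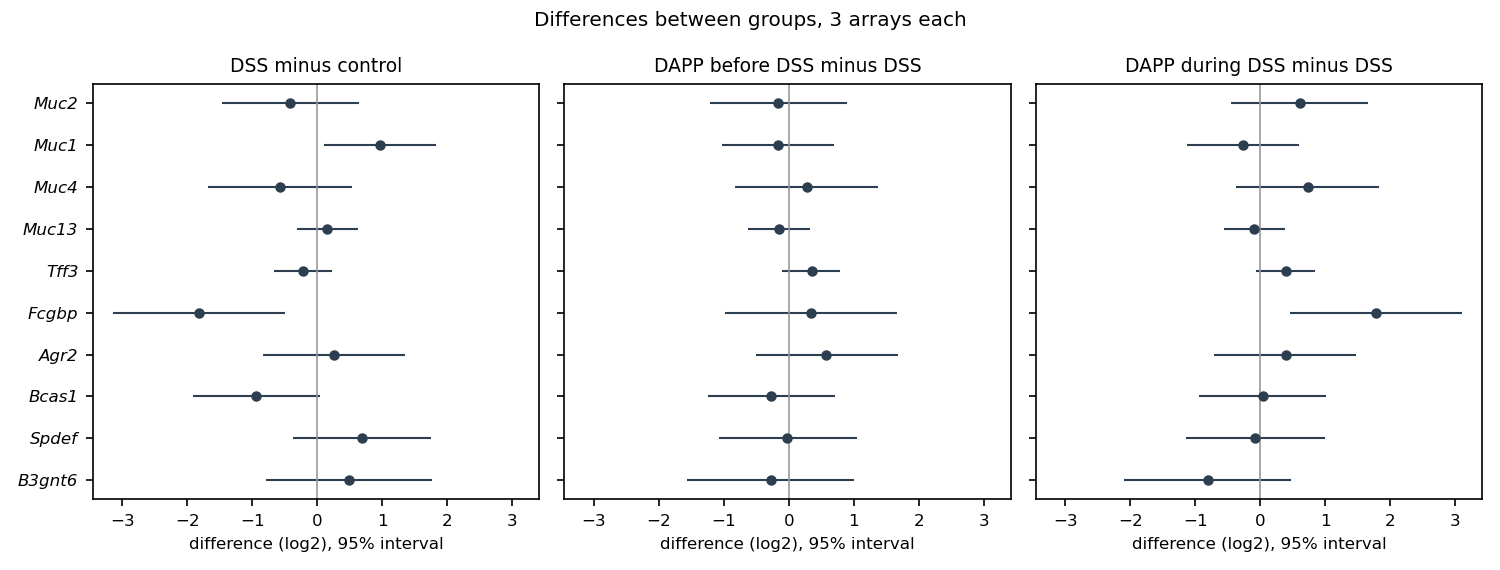
Log2 difference (x axis) of the 10 genes between DSS and control and between each DAPP group and DSS, with the 95% interval from limma, 3 arrays per group. The interval excludes 0 for Muc1 and Fcgbp in the first panel, for no gene in the second and for Fcgbp in the third. No gene has an adjusted p under 0.05.

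The correlations of Muc2 with other genes of the 10 rested on DSS 1 and DAPP before DSS 1. Over 12 arrays, which share labels and processing, Muc2 correlated with Muc4 at 0.87, with Fcgbp at 0.80, with Bcas1 at 0.79 and with Muc13 at 0.77. Over the 10 arrays without those 2, the values were 0.16, 0.15, -0.68 and -0.07. Leaving out those arrays moved 7 of the 9 pairs with Muc2 and 12 of the 36 other pairs by more than 0.5. Muc13 with Fcgbp went from 0.40 to -0.57, and Muc4 with Agr2 from -0.05 to 0.65. Pairs that moved little were Muc1 with Muc13, from 0.63 to 0.70, Muc1 with Spdef, from 0.70 to 0.64, and Spdef with B3gnt6, from 0.69 to 0.62. These values are descriptions of arrays that also differ by group. The mean of the 6 genes other than the mucins, each standardised over the arrays, was -1.28 on DSS 1 and between -0.54 and 0.67 on the other 11. The 8 genes most like that mean over 12 arrays were Elapor1, Rap1gap, Ano7, Ccni, Slc12a8, Fut8, Gm11437 and A130010J15Rik, with correlations of 0.872 to 0.832. Over 10 arrays they were 0.586 for Elapor1, 0.718 for Fut8, which adds core fucose to N-glycans, and 0.819 for A130010J15Rik.

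**Figure D3:**
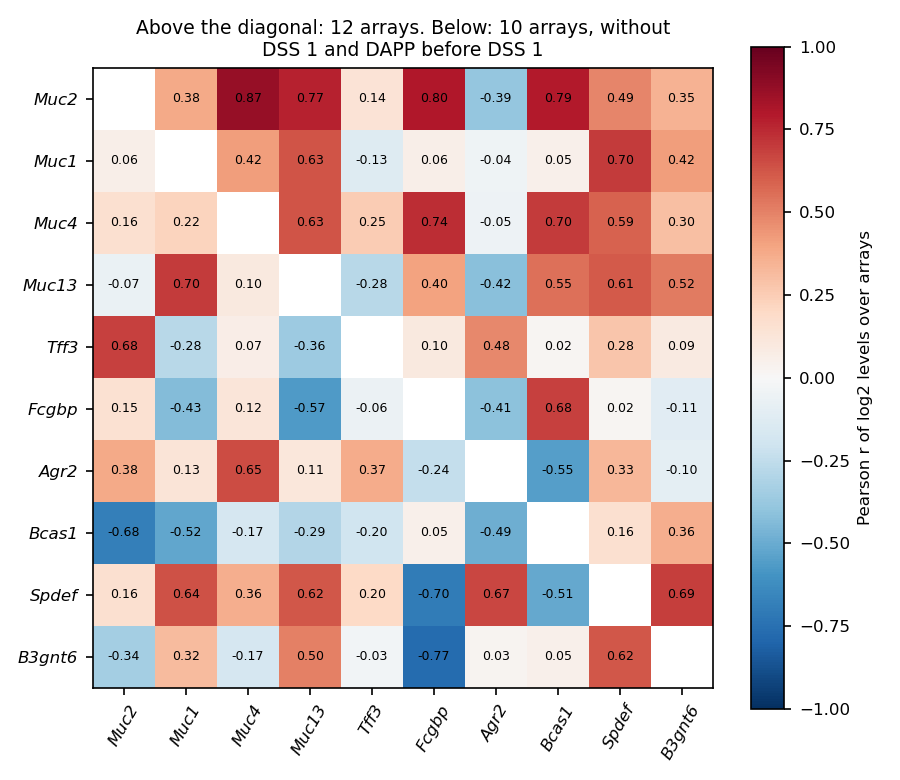
Pearson correlation of log2 levels between the 10 genes, over 12 arrays above the diagonal and over 10 arrays below it, without DSS 1 and DAPP before DSS 1. The Muc2 row is at 0.77 to 0.87 for Muc13, Bcas1, Fcgbp and Muc4 above the diagonal and at -0.68 to 0.16 below it.

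Genes listed for mucin O-glycosylation moved in both directions. The arrays do not show in which cells or on which proteins their enzymes acted. Of 20 measured O-glycosylation genes other than B3gnt6, 2 rose and 2 fell in DSS against control, where 3.91% of all genes rose and 2.81% fell, and the list's median was 0.20. St3gal1, which caps the core 1 sugar with sialic acid, read 7.56, 7.51 and 6.17 in control and 9.29, 8.58 and 8.32 in DSS. It rose by 1.65 ± 0.40 (limma, adjusted p = 0.0283). That call was lost when control 3 was left out (1.20, limma, adjusted p = 0.107), and also without DSS 1 or without DSS 2. Over all 24 alternatives it was lost in 6, with differences of 1.06 to 1.95. St3gal4, another sialyltransferase, read 10.69, 10.59 and 10.69 in control and 8.92, 8.59 and 9.82 in DSS. It fell by 1.55 ± 0.30 (limma, adjusted p = 0.00862) and passed in all 24 alternatives. St6galnac2, which adds sialic acid to the first sugar of the chain, fell by 1.19 ± 0.28 (limma, adjusted p = 0.0224), and Galnt10, an enzyme that starts chains, rose by 0.75 ± 0.19 (limma, adjusted p = 0.0377). The St6galnac2 call was lost when any control array or DSS 1 was left out, with values of -1.26 to -0.89, and the Galnt10 call for 8 of the 12 arrays. Both rest on the brightest probe: with the mean of all kept probes of each gene St6galnac2 differed by -0.53 (limma, adjusted p = 0.166) and Galnt10 by 0.09 (limma, adjusted p = 0.905). On that setting 0 of 20 rose, so the St3gal1 call was lost as well, and 1 fell, where 761 of 11933 genes were called in either direction.

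The DAPP groups are set against the same 3 control arrays as DSS, so their differences are given side by side. In DAPP before DSS, 3 of 20 rose, against 6.27% of all genes, and 3 fell, against 4.94%. In DAPP during DSS 1 rose, against 4.53%, and 2 fell, against 3.15%. With arrays scaled to equal medians, 3 rose and 0 fell in DAPP during DSS. On that setting 1710 of 11933 genes were called there in either direction, and the median difference of all genes was 0.38. Against control, St3gal1 rose by 2.15 and 2.09, with adjusted p of 0.00511 and 0.00756 in limma, and both calls held in all 24 alternatives. St3gal4 fell by 1.62 and 1.37, and the second call was lost for 4 of 12 arrays left out (controls 1 and 3, DAPP during DSS 1 and 2). St6galnac2 fell by 1.03 and 1.09, calls lost for 5 and 6 of 12 arrays, all controls among them. Over 24 alternatives each of these calls was lost in 8, with differences of -1.53 to -0.46 and of -1.31 to -0.42. In the comparisons with DSS, 0 of 20 passed. B3gnt7, which extends chains, fell by 1.97 in DAPP before DSS (limma, adjusted p = 0.0495), with 6.63 on DAPP before DSS 1 against 8.91 to 9.42 on its other arrays. It was -1.12 without that array (limma, adjusted p = 0.0604), and the call was lost for 9 of 12 arrays left out.

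Of 25 measured genes listed for goblet secretion and granules, 1 rose and 1 fell in DSS, against 3.91% and 2.81% of all genes. The list's median was -0.04. A place on this list does not show that a gene is secreted with mucins. Clca1, a protease of the gel, read 15.01, 14.69 and 14.38 in control, near the top of the scale on controls 1 and 2, and 12.41, 12.89 and 13.93 in DSS. It fell by 1.61 ± 0.43 (limma, adjusted p = 0.0427), and the call was lost for 9 of 12 arrays left out, with a difference of -1.28 without DSS 1 (limma, adjusted p = 0.181). Guca2b, the peptide uroguanylin that acts on guanylate cyclase C, read 9.28, 9.64 and 9.09 in control and 10.43, 10.37 and 10.36 in DSS. It rose by 1.05 ± 0.21 (limma, adjusted p = 0.00921), and the call was lost only without control 3 (0.92, limma, adjusted p = 0.0506). In DAPP before DSS 1 of 25 rose and 3 fell, against 6.27% and 4.94% of all genes. Guca2b rose there by 0.71 (limma, adjusted p = 0.044), a call lost for 10 of 12 arrays left out. Clca1 fell there by 1.71 (limma, adjusted p = 0.0238), a call lost for 3 of 12. With the pancreas mean as a covariate 0 rose and 0 fell, where 713 of 11933 genes were called. In DAPP during DSS 1 rose and 1 fell, against 4.53% and 3.15%. With the covariate 0 rose and 1 fell there, where 829 of 11933 genes were called. With equal medians 3 rose and 1 fell, where 1710 of 11933 genes were called and the median difference of all genes was 0.38.

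Ang4, an antimicrobial ribonuclease that goblet and Paneth cells secrete, read 14.09, 13.49 and 9.16 in control and 6.84 to 9.28 on the 9 other arrays. Control 3 lay near the arrays of the treated groups. Ang4 fell by 4.0 in DAPP before DSS (limma, adjusted p = 0.0228) and by 4.34 in DAPP during DSS (limma, adjusted p = 0.0194). Both calls were lost without control 1 or without control 2. Without control 1 the differences were -3.08 (limma, adjusted p = 0.0937) and -3.42 (limma, adjusted p = 0.0833), and single DAPP arrays also ended them (DAPP before DSS 2 for the first, DAPP during DSS 2 or 3 for the second). Without control 3 they were -5.54 and -5.88, with adjusted p of 0.000199 and 0.000148 in limma. In DSS the difference was -3.46 ± 0.99 (limma, adjusted p = 0.0608). Rab27b, a GTPase of secretory granules, fell by 1.53 ± 0.30 in DAPP before DSS (limma, adjusted p = 0.00724) and differed by -0.44 in DSS. The call was lost in 2 of 23 alternatives. Rab27b read 6.95, 7.61 and 7.37 in control and 5.04, 6.43 and 5.87 in DAPP before DSS. The 5.04 on DAPP before DSS 1 is under the lowest detected level of that array, 5.70, and so a background reading. DAPP during DSS, with 6.27, 6.18 and 6.29, also lay below all control arrays but was not called. Dmbt1, a secreted scavenger receptor, rose by 1.00 in DAPP during DSS (limma, adjusted p = 0.0497), where all its arrays were near the top of the scale. That call was lost for 9 of 12 arrays left out.

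**Figure D4:**
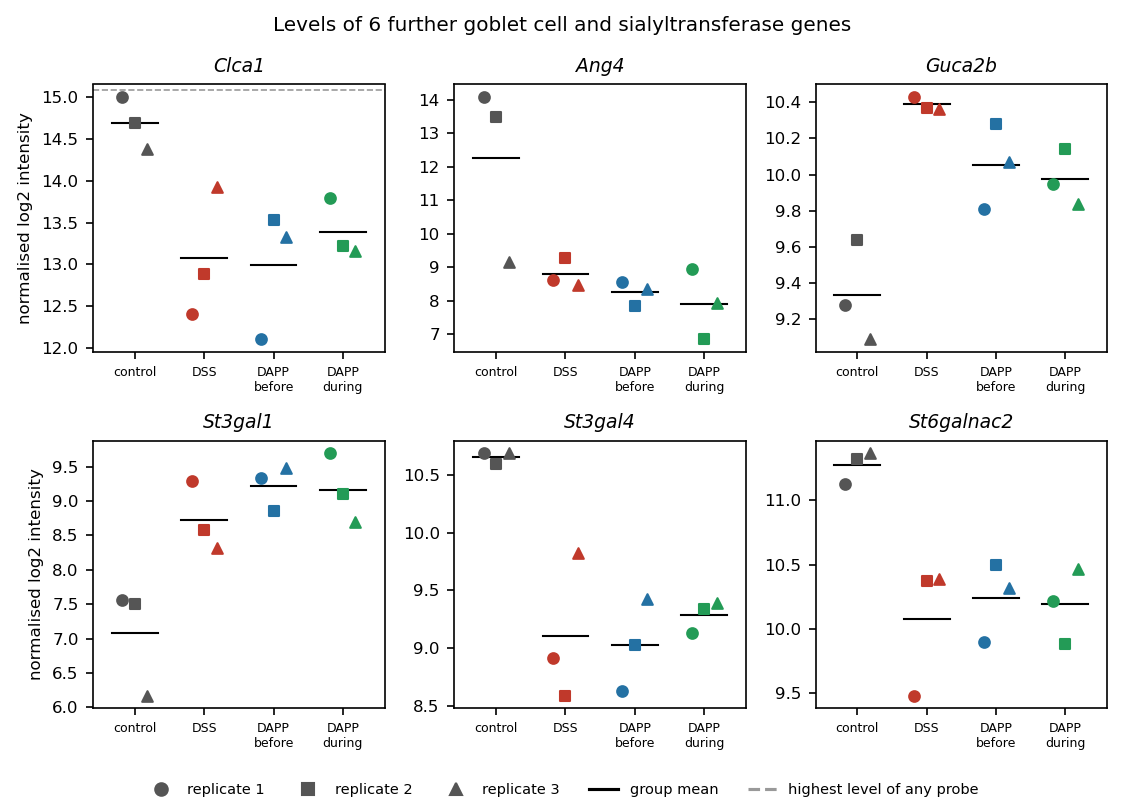
Normalised log2 intensity (y axis) of 6 further genes from the secretory and granule list and the O-glycosylation list on each array, by group (x axis). Symbols give the replicate and black bars are group means of 3 arrays. St3gal4 lies at 10.59 to 10.69 in control and at or below 9.82 elsewhere, and Ang4 at 9.16 on control 3 against 13.49 and 14.09 on the other control arrays.

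Of 12 measured transcription factors of goblet and intestinal cells, 0 passed in DSS, where 6.71% of all genes passed. Their median was -0.37, against -0.04 over all genes, and 9 of 12 had a negative difference. Klf4, a factor of goblet cell differentiation, read 12.22, 12.13 and 12.30 in control and 11.26, 11.62 and 11.64 in DSS, a difference of -0.71 ± 0.23 (limma, adjusted p = 0.0921). It fell by 0.82 ± 0.23 in DAPP before DSS (limma, adjusted p = 0.037), and the call was lost for 8 of 12 arrays left out. Xbp1, a factor of the secretory stress response, and Elf3, an epithelial Ets factor, differed between DSS and control by 0.21 and 0.05. Of the 11 other mucins listed, Muc5ac alone passed the detection filter, and it was detected on 5 arrays with a DSS difference of 0.04. In the markers of other cells, 0 of 14 epithelial genes passed in DSS, against the same 6.71% of all genes, with a median of -0.18. Of the colonocyte genes 0 of 11 passed, with a median of -0.99, against -0.04 over all genes, and 9 of 11 differences below 0. With array weights 4 of 11 fell, where 1479 of 11933 genes were called in either direction. Of the others, 9 of 11 neutrophil genes rose, against 3.91% of all genes, and 8 of 9 smooth muscle genes fell, against 2.81%. Their part in the levels of the 10 genes and of the genes on the other lists was not tested.

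**Figure D5:**
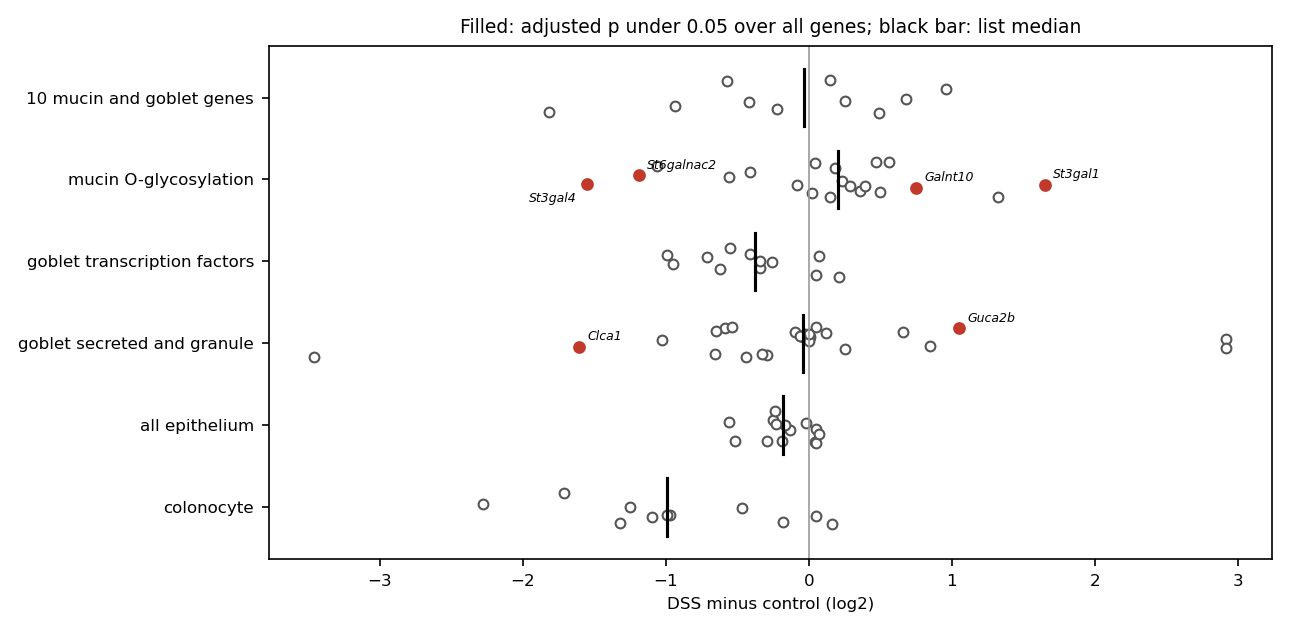
Log2 difference between DSS and control (x axis) for each measured gene of 6 lists (y axis). Filled circles passed at an adjusted p under 0.05 in limma over all genes, and black bars are list medians. The 10 mucin and goblet cell genes spread from -1.82 to 0.96 around a median of -0.04 with no filled circle, and 4 circles are filled for O-glycosylation.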

How the data were processed

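The authors' deposited table holds raw probe intensity and a detection p-value for each of 45281 probes on 12 arrays, per the file headers. GenomeStudio was used, per the submitters' processing notes, and no source used here states how background was handled. The authors' processed intensity values of the same arrays (medians 146.5 to 146.6, means 567, not log-transformed; column ranks equal to those of the raw columns) were used as an alternative. No genome build is named for the array.

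Intensities were background-corrected, quantile-normalised and put on the log2 scale with neqc (offset 16) in limma 3.58.1 and R 4.3.3, from the deposited signals and detection p-values. Probes detected at p under 0.05 on at least 3 arrays were kept (22359), and the brightest kept probe, by its mean, stood for each gene (11933 genes). Gene names came from the platform annotation. lmFit and eBayes were fitted to all 12 arrays and 4 groups (8 residual and 3.95 prior degrees of freedom), and genes with a Benjamini-Hochberg adjusted p below 0.05 among all genes were called. The procedure was tested on simulated data. The labels call the samples biological replicates, so that p-values reflect the spread of the samples, whose number limits the precision.

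The 10 genes and all lists were chosen with earlier results of these data known. The text names all 10 genes and the 8 genes most like the mean of the genes other than the mucins. From the mucin and goblet cell lists it names called genes (up to the 4 largest per comparison) or the 2 brightest. Markers of other cells are given as list means or counts, without naming their called genes.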

Additional observations from a re-analysis of the deposited data

How the results depend on the processing

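Counts of the 10 genes at an adjusted p under 0.05 were 0 in each comparison, and 0 in all 24 alternatives for both DAPP groups against DSS and against each other. Between DSS and control the count was 1 with array weights (Fcgbp, -1.76, limma, adjusted p = 0.0179) and 1 without DSS 1 and DAPP before DSS 1 together (Muc1). Of all 11933 genes, 1479 and 1017 were called in these fits. Leaving out 1 array at a time gave 0 to 1 called genes in DSS against control, with Fcgbp called without DSS 3 and without DAPP before DSS 1. Those fits called 739 and 1523 of 11933 genes. For DAPP before DSS against control leaving out 1 array gave 0 to 1, with Bcas1 called without DAPP before DSS 2 (-1.66, limma, adjusted p = 0.0274). Leaving out both arrays gave 1 (Muc1). Among all 11933 genes 1508 were called without DAPP before DSS 2 and 1698 without both arrays. For DAPP during DSS against control the count was 1 with equal medians (Muc13, 0.80, limma, adjusted p = 0.0295) and 1 with array weights (Bcas1, limma, adjusted p = 0.0131). It was 1 with only the groups compared (Bcas1, limma, adjusted p = 0.00572) and 1 without both arrays (Bcas1). In the same order these fits called 1710, 3392, 2352 and 1863 of 11933 genes. The cause of the changes between settings was not tested. Scaling to equal medians shifted the median of all genes by 0.13 to 0.38 in the comparisons that involve a DAPP group, and Muc13 is read against a shift of 0.38.

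Same-numbered arrays were not more alike than others: 3 of 18 same-numbered pairs had deviations correlated above 0.1, against 8 of 36 differently numbered pairs. Best correlated with their own number were 3 of 12 arrays. With 3 arrays per group this check cannot exclude that a number marks a shared litter or batch. With the replicate block, 1 of the 10 genes was called in DSS against control (Fcgbp, -1.82 ± 0.47, limma, adjusted p = 0.0446) and 0 in the other comparisons. That fit called 812 of 11933 genes in DSS, 1378 in DAPP before DSS and 895 in DAPP during DSS, each against control.

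Over all alternatives the number of all genes called ranged from 429 to 1523 in DSS against control (801 in the reported fit), from 713 to 1738 in DAPP before DSS (1338) and from 443 to 3392 in DAPP during DSS (917). The alternatives for genes of the lists were added after seeing the data. Under detection on every array, Fcgbp, Muc4 and B3gnt6 drop out and 7 of the 10 genes are tested. Signal over background limits Fcgbp, Muc4 and B3gnt6. Muc2 and Muc13 lie near the top of the normalised scale, where differences can be understated, though no ceiling was measured.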

Other observations

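Control 3 differed from the other control arrays for several secretory genes, which were singled out after their values were seen. Retnlb, an antimicrobial protein of goblet cells, read 13.76, 12.03 and 6.88 in control and 12.47 to 14.86 on the other 9 arrays. Its difference between DSS and control of 2.92 ± 1.28 did not pass (limma, adjusted p = 0.228). Ang4, Spdef and Agr2 were also lowest among the control arrays on control 3, at 9.16, 8.02 and 8.03, while Fcgbp and Bcas1 were highest there, at 8.09 and 12.72.

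Tff2, a trefoil peptide best known from the stomach, also singled out after its values were seen, read 8.00, 6.59 and 5.95 in control, 5.80, 10.95 and 12.54 in DSS, 12.94, 9.40 and 10.80 in DAPP before DSS, while DAPP during DSS had 5.95, 4.68 and 12.87. The mean of the 12 pancreas transcripts on the same arrays was 8.5, 6.75 and 6.63, then 6.72, 13.42 and 14.14, then 14.03, 12.51 and 13.31, then 9.08, 6.35 and 14.39. The Tff2 difference between DSS and control did not pass (2.92 ± 2.01, limma, adjusted p = 0.493).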
